A study of Mus musculus with 10 samples.

Results

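Potassium channel genes were taken here as the autosomal protein-coding mouse genes whose symbol is Kcn followed by letters and a number. The rule found 91 of 20665 autosomal protein-coding genes on 18 chromosomes. One further match, Kcnd1 on the X chromosome, was left out by it. Rows of a table of 5-carboxylcytosine (5caC) coverage that lay within a gene's span, from the first to the last base of its annotation, were counted for that gene. The spans ran between 1.968 kb (Kcna3) and 1135.62 kb (Kcnip4), with a median of 36.2 kb against 17.5 kb over all autosomal protein-coding genes. Of the 91 genes, 41 share some of their span with another annotated gene, so a site can count for more than 1 gene. Where this touches many sites of a gene described below, the share is given beside its values.

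The study mapped 5caC base by base in DNA from mouse embryonic stem cells grown without feeder cells. Values exist for 4 groups of 2 technical replicates each: serum-2i Tdg, serum Tdg, serum-2i wt and serum wt. All of them grew in serum with LIF, and serum-2i adds the GSK3 inhibitor CHIR99021 at 3 µM and the MEK inhibitor PD0325901 at 1 µM. The Tdg gene makes thymine DNA glycosylase, which cuts 5caC out of DNA, and the labels name the gene without saying how it was altered. The other group of the 10 samples, DNA of serum-grown cells without any Tet gene, was the study's control and has no values of its own in the table, so no background could be set beside the values. The cell type was not checked against markers, as the assay measures DNA and no expression.

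Potassium channels let potassium ions leave or enter a cell and so set its resting voltage and the shape of its electrical signals. Voltage-gated channels are built from pore-forming alpha subunits and bind auxiliary subunits, inward rectifiers and two-pore channels set resting conductance, and a further class opens with calcium, sodium or pH. Many of these genes serve nerve, muscle and epithelia, and embryonic stem cells are not an excitable tissue. TET enzymes oxidise 5-methylcytosine stepwise to 5caC, and base excision through TDG then restores an unmodified cytosine, so 5caC marks a cytosine on its way through demethylation.

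Coverage is the number of reads that report 5caC at a CG, averaged over a group's 2 replicates, and only positions above a group's own minimum are listed. That minimum was 6 for both Tdg groups, 4 for serum-2i wt and 3 for serum wt. A position not listed in a group therefore has an unknown value there, not a value of 0. Over the genome the groups held between 8685 (serum wt) and 689303 (serum-2i Tdg) listed sites. Each gene's share of its group's summed coverage was set against its share in another group as a log2 ratio, with an exact 95% interval that covers counting error only, since no value per replicate exists and no spread between replicates could be computed. Calls of higher or lower needed a difference of at least 2-fold in share and an interval off 0. Calls were made for genes whose summed coverage averaged at least 20 over the 4 groups, which 76 of the 91 passed and 15 did not. The 76 passed mostly through their Tdg values, so their counts describe them alone.

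Nearly all potassium channel genes had a listed 5caC site in Tdg cells. A site was listed for serum-2i Tdg in 88 of the 91 genes (96.7%) and for serum Tdg in 80 (87.9%), against 62 (68.1%) for serum-2i wt and 28 (30.8%) for serum wt. Over all autosomal protein-coding genes, many of them shorter, the shares were 76.8%, 68.1%, 58.1% and 16.1% in the same order of groups. Only Kcna10, an alpha subunit, and Kcne4, an auxiliary subunit, had no listed site in any of the 4 groups, while 26 genes were listed in all 4.

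The 91 genes together held 2329 listed sites for serum-2i Tdg and 1665 for serum Tdg, against 387 for serum-2i wt and 37 for serum wt. Their summed coverage was 40346, 31962.5, 2982.5 and 175.5 in that order. The mean coverage of a listed site was 17.3 in serum-2i Tdg and 19.2 in serum Tdg, against 7.71 for serum-2i wt and 4.74 for serum wt, and over all listed sites it was 17.9, 19.99, 8.04 and 4.97. These means move with each group's own listing minimum and with library depth, which is unknown, so they do not compare the depth of sites between genotypes. The coverage of a listed site in these genes was close to that of sites elsewhere in each group. Potassium channel genes had 6.02 times as many listed sites in Tdg as in wt cells in serum-2i, against 6.22 times over all sites, and 45 times as many in serum, against 43.1 times.

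In Tdg cells, the members' share of coverage was lower in serum-2i than in serum. Serum-2i had 1.40 times as many sites in potassium channel genes as serum, against 1.84 times over all sites. The log2 ratio of the summed shares, serum-2i Tdg over serum Tdg, was -0.39 (95% interval -0.40 to -0.37). The summed ratio of Tdg over wt cells was -0.04 (-0.07 to 0.00) in serum-2i and 0.07 (-0.08 to 0.23) in serum, and both intervals include 0. These sums depend on the scaling: with shares of site number they were 1.12 (1.08 to 1.16) and 2.08 (1.93 to 2.23), and with a scaling that sets the median gene to no change 0.19 (0.15 to 0.23) and 1.34 (1.19 to 1.495). In wt cells, the sum over members gave a serum-2i over serum ratio of -0.28 (-0.43 to -0.12), which rests on the 37 sites of serum wt and turned to 0.41 and 1.22 under the same scalings. For the comparisons with serum wt, the median gene came only from genes with a ratio, which serum wt must list. These were 3173 genes for Tdg over wt in serum and 2916 for media in wt cells. Their medians were -1.27 and -1.50, and setting those to 0 moves the members' sums up by as much.

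**Figure D1:**
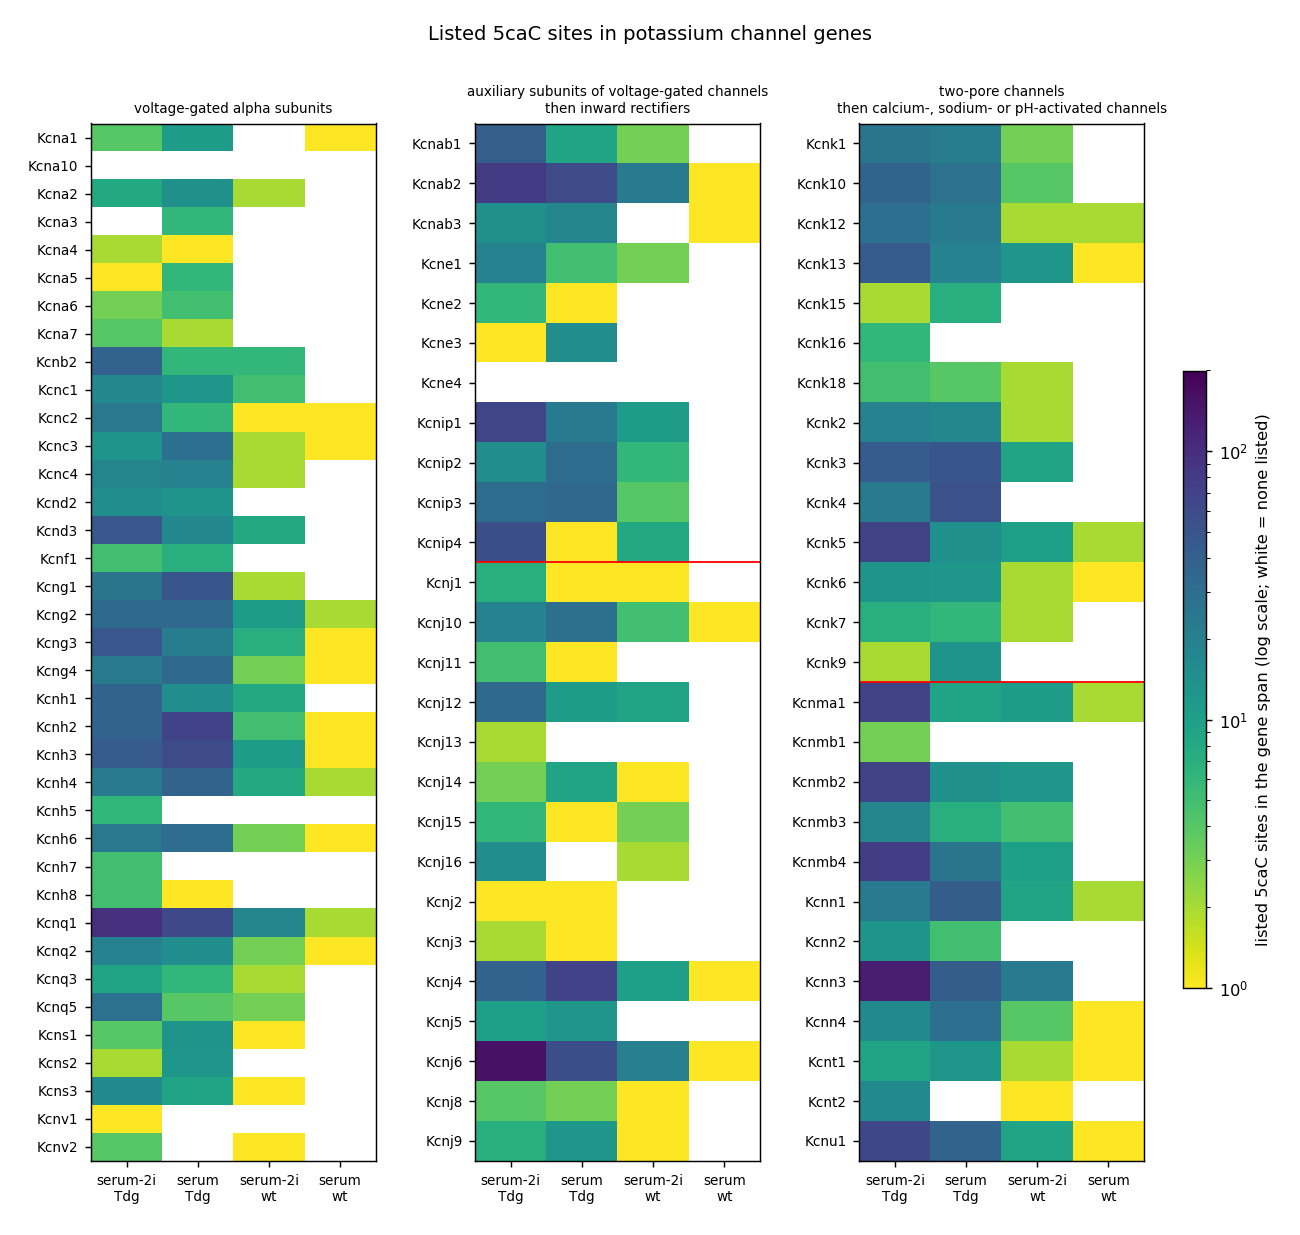
Listed 5caC sites in 89 potassium channel genes (rows, by role) in the 4 groups (columns). Colour gives the number of sites on a log scale and white means none listed; red lines part auxiliary subunits from inward rectifiers and two-pore from calcium-, sodium- or pH-activated channels. Kcnj6 (153 sites) and Kcnn3 (127) are among the darkest cells of the serum-2i Tdg column, and most cells of the serum wt column are white.

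Comparing serum-2i with serum in Tdg cells, 74 of the 76 genes past the filter had a ratio. Of these, 15 (20.3%) were higher in serum-2i and 32 (43.2%) were lower, with 27 between. Over all autosomal protein-coding genes with a ratio, 28.2% were called higher and 25.1% lower. The median log2 ratio was -0.68 for potassium channel genes and 0.08 for all genes. By number of sites in place of coverage, 7 were higher (background 10.9%) and 27 were lower (16.5%). The higher calls that ended this way were Kcnmb4 (0.65), Kcnip1 (0.70), Kcnn3 (0.72), Kcnc2 (1.12), Kcnh8 (1.44), Kcne2 (1.70), Kcnj15 (1.70) and Kcnj1 (1.93), and the lower ones Kcnk6 (-0.76) and Kcnj8 (-0.47), among the genes chosen for description. The 2 genes past the filter with no ratio, Kcnt2 and Kcnj16, had sites in serum-2i but not in serum Tdg cells.

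These differences went with gene length. In the shortest class, under 10 kb, 12 of 14 potassium channel genes were lower in serum-2i Tdg (background 56.5%) and 1 was higher (background 10.5%). Between 10 and 30 kb, 11 of 16 were lower (30.9%) and 1 was higher (22.1%). Between 30 and 100 kb, 9 of 25 were lower (13.4%) and 3 were higher (32.1%).

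The direction of the calls turned in the long genes. None of 7 genes between 100 and 300 kb was lower (background 3.88%) and 3 were higher (45.8%). None of 12 over 300 kb was lower (0.805%) and 7 were higher (68.6%). The median log2 ratios of the potassium channel genes, by rising class, were -2.29, -1.45, -0.46, 0.75 and 1.60, against -1.31, -0.26, 0.38, 0.88 and 1.57 for all genes of the same classes. Below 100 kb the members' medians thus lay under those of all genes of their class by about as much each time. Above 100 kb they lay close to them. Across the 74 genes, span and log2 ratio had a Spearman rho of 0.694, beside 0.454 across all 12400 genes with a ratio. These are descriptions across genes of the same libraries, and genes are not independent replicates.

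**Figure D2:**
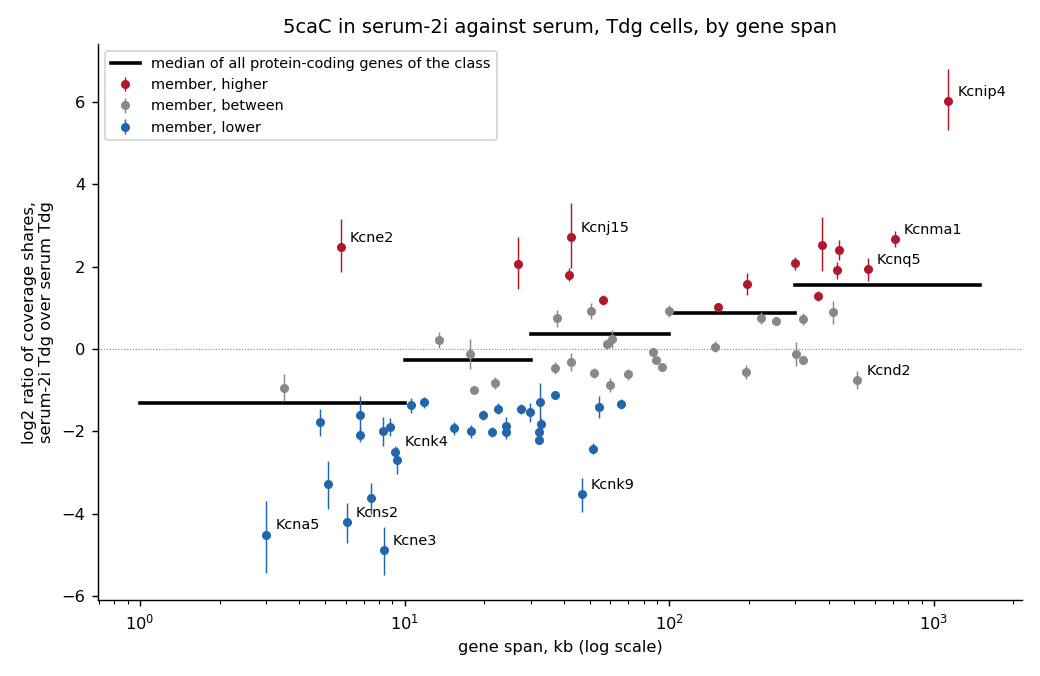
Log2 ratio of coverage shares, serum-2i Tdg over serum Tdg, against gene span in kb (log axis) for 74 potassium channel genes. Points are genes coloured by call, vertical lines are 95% counting intervals and black bars are the medians of all autosomal protein-coding genes of each span class. Points below 0 cluster among short genes and points above 0 among long ones, with Kcnip4 at the top (6.01).

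The number of sites per kb, another quantity, also differed from other genes by length, in both media. Genes under 10 kb held 0.848 sites per kb in serum-2i Tdg and 1.58 in serum Tdg, which was 1.42 times (95% interval 1.15 to 1.73) and 1.99 times (1.72 to 2.30) the density of all protein-coding genes of that class. Between 10 and 30 kb the ratios were 1.25 (1.11 to 1.40) in serum-2i Tdg and 2.07 (1.87 to 2.28) in serum Tdg, and between 30 and 100 kb they were 1.30 (1.22 to 1.39) and 1.71 (1.59 to 1.83). Longer potassium channel genes were instead sparser than their class. Between 100 and 300 kb the ratios were 0.598 (0.546 to 0.653) in serum-2i Tdg and 0.520 (0.447 to 0.601) in serum Tdg, and over 300 kb they were 0.414 (0.378 to 0.452) and 0.438 (0.372 to 0.513). These intervals count each site as independent, which neighbouring sites on 1 read are not, and CG content was not available to set beside the densities. Nor were spans matched within a class. Members had a median of 6.05 kb against 3.82 kb for all genes under 10 kb, and 196.4 kb against 147.8 kb between 100 and 300 kb. Over 300 kb the medians were 423.1 kb against 450.8 kb, and between 10 and 100 kb they were close.

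**Figure D3:**
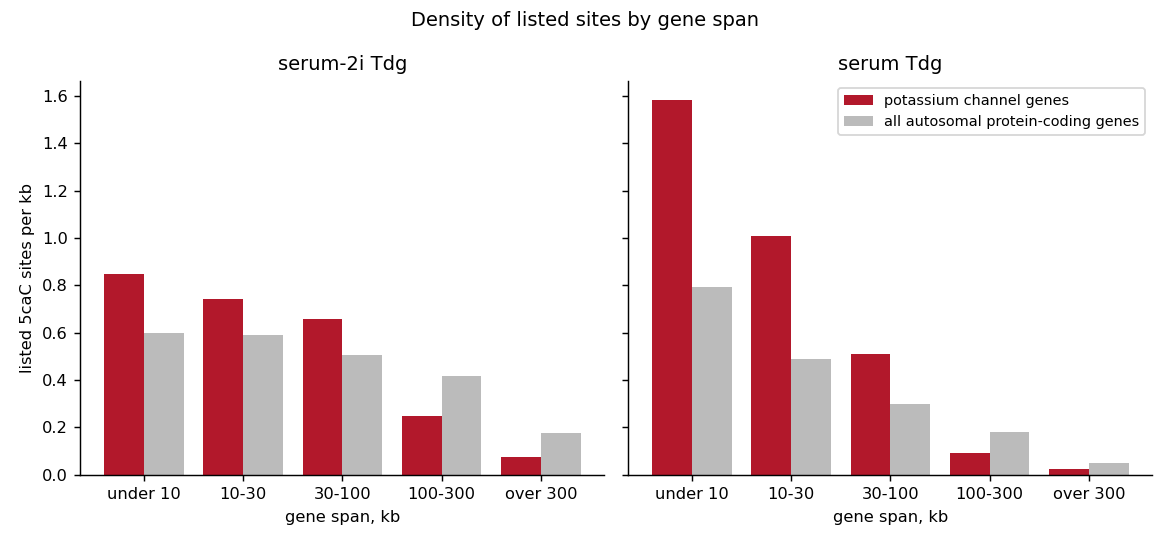
Listed 5caC sites per kb of gene span (bars, linear axis starting at 0) by span class in kb, for potassium channel genes (red) and all autosomal protein-coding genes (grey), in serum-2i Tdg (left) and serum Tdg (right). Red bars exceed grey ones below 100 kb, by 1.99 and 2.07 times in the shortest classes of serum Tdg, and fall under them above 100 kb.

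In Tdg cells, where sites lay within the genes differed between media. Of the sites in potassium channel genes, 5.36% in serum-2i Tdg and 15.7% in serum Tdg lay within 1 kb of a span end, a stretch that makes up 1.71% of the members' length. In wt cells the share was 4.39% for serum-2i and 5.41% for serum, the second being 2 of 37 sites. The shares over all autosomal protein-coding genes were 5.28% in serum-2i Tdg and 12.1% in serum Tdg, against 4.94% for serum-2i wt and 13.9% for serum wt, where 3.91% of the length lies that near an end. Counting only sites near an end, 18 of the 23 potassium channel genes with a ratio were lower in serum-2i Tdg (background 60.1%) and 2 were higher (10.3%), with a median of -2.73 against -1.47 for all genes. Counting only sites over 1 kb from both ends, 25 of 67 were lower (21.7%) and 19 were higher (31.8%), with a median of -0.26 against 0.26.

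RefSeq gave a transcription start for 67 of the 91 genes. In the first kb after it, they held 0.597 sites per kb in serum-2i Tdg and 2.04 in serum Tdg, against 0.368 and 0.750 over all 16457 genes with a start. In the kb upstream the densities were 0.597 in serum-2i Tdg and 1.36 in serum Tdg, against 0.427 and 0.765. The start was thus the densest stretch of these genes in serum Tdg, and no such peak stood at the start in serum-2i Tdg. Between 10 and 50 kb downstream the order of groups was the opposite, with 0.344 sites per kb in serum-2i Tdg and 0.197 in serum Tdg, against 0.495 and 0.262 over all genes.

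Several single genes showed this contrast in the first kb after the start. Kcnk10, a two-pore channel of the lipid- and stretch-sensitive group, had 0 sites there in serum-2i Tdg and 8 in serum Tdg. Kcnj5, a G-protein-gated inward rectifier, had 3 and 12, and Kcnip3, a calcium-binding partner of Kv4 channels, had 4 and 11. Kcnmb2 (5 and 5) and Kcnk7 (6 and 5) held about as many in either medium. These genes are picked from the count of sites in that kb, so they illustrate it and add nothing to it.

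**Figure D4:**
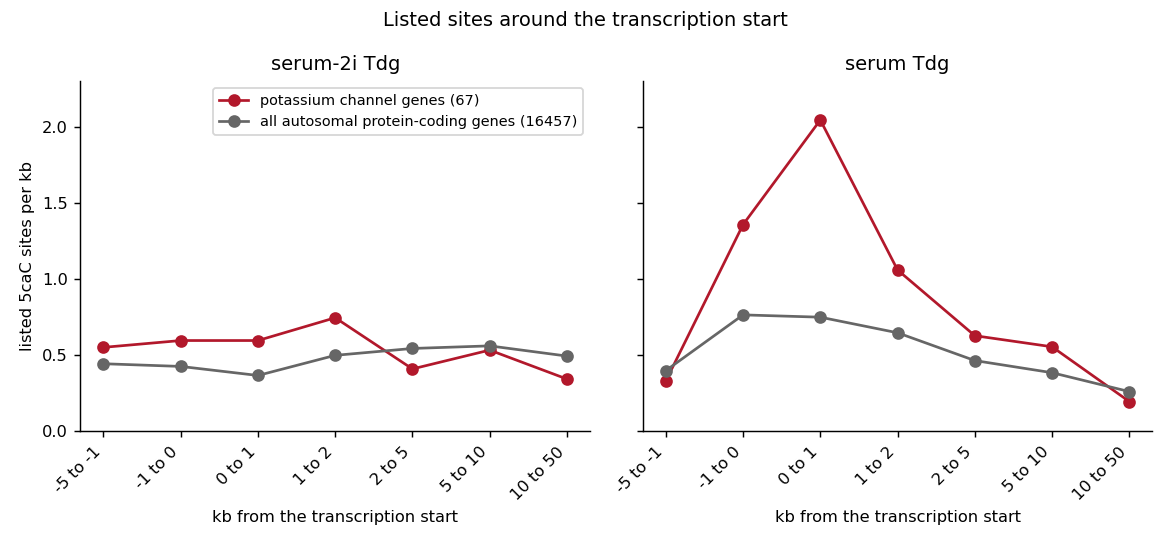
Listed 5caC sites per kb (vertical axis from 0) in bins of distance from the transcription start in kb, negative upstream, for 67 potassium channel genes (red) and 16457 autosomal protein-coding genes (grey) in serum-2i Tdg (left) and serum Tdg (right). In serum Tdg the red line peaks at 2.04 in the first kb against 0.750 for all genes, while in serum-2i Tdg it stays between 0.344 and 0.747.

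Promoter sequences (GRCm38.p6, which is mm10; 250 bases before to 50 after a start) gave 92 windows for the 67 genes, with 1252 CGs. Of these CGs, 22 (1.76%) were listed for serum-2i Tdg and 69 (5.51%) for serum Tdg, against 2 for each wt group. Over the promoters of all genes, 1.24% of CGs were listed in serum-2i Tdg and 2.57% in serum Tdg. The median window of the members held 9 CGs, against 14 over all genes. All genes' 20085 windows held 288778 CGs in total, so the means per window lay closer than the medians. Matched to these sequences, all 15300 listed positions that fall in any promoter window lay on the C of a CG on the plus strand once 1 was added, so positions are given here counted from 1.

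3 promoters are printed because they show the two-way contrast between media at single CGs. Each runs 5′ to 3′ on the gene's own strand, and capitals mark the CGs listed in either Tdg group. Kcns1 encodes a silent subunit that forms channels only with other alpha subunits, and its window is chr2:164171064-164171363 on the minus strand. Kcne2 encodes a small auxiliary subunit known from heart and stomach, and its window is chr16:92292139-92292438 on the plus strand. Kcnip3 has its window at chr2:127522045-127522344 on the minus strand.
Kcns1: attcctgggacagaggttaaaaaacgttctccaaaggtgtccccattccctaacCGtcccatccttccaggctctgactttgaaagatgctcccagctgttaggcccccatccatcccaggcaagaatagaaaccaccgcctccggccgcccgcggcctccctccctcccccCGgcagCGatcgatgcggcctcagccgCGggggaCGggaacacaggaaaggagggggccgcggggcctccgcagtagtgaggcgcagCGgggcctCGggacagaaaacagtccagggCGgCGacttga
Kcne2: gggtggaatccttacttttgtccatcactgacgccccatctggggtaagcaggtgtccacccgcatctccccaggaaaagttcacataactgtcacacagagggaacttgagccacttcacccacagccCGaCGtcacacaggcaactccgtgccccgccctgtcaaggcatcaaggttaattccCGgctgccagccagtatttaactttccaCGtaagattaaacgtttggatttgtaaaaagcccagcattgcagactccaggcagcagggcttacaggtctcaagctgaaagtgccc
Kcnip3: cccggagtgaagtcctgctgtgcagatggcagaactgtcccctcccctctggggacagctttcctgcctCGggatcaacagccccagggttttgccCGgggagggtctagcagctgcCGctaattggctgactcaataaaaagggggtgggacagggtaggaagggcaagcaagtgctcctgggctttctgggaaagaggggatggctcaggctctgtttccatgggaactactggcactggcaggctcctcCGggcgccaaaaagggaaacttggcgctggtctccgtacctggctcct

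Of the 22 CGs in the Kcns1 window, 1 was listed in serum-2i Tdg, at a coverage of 8, and 9 were listed in serum Tdg, at 7.5 to 62 with a median of 19. The deepest lay 18 bases after the start and was the 1 shared by the media. The Kcne2 window went the other way, with 4 of its 9 CGs listed in serum-2i Tdg, at 18, 37.5, 38 and 31.5 from the far end to the start, and 1 in serum Tdg, at 11. In the Kcnip3 window 2 of 8 CGs were listed in serum-2i Tdg, at 20 and 21, and 4 in serum Tdg, at 12.5 to 47.5. No CG of these windows was listed in wt cells. The windows of Kcnh6, an ERG-type alpha subunit, and of Kcnk10 each had 4 CGs listed in serum Tdg and 0 in serum-2i Tdg.

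Voltage-gated alpha subunits, the pore-forming group, numbered 39. Of the 31 with a media ratio in Tdg cells, 4 were higher in serum-2i (background 28.2%), 14 were lower (25.1%) and 13 lay between. Their median was -0.87. Here and for the roles below, the background is over genes of all lengths. The roles differ in span, with medians between 24.1 kb (auxiliary subunits) and 72.7 kb (calcium-, sodium- or pH-activated channels). Whether roles differ beyond length was not tested. The Kcna genes encode the Kv1 channels of axons and lymphocytes. Of these 8 genes, 4 passed the filter and had a ratio, and all 4 were lower. The background was 25.1% over all genes and 56.5% for those under 10 kb, the class of Kcna1 and Kcna5. It was 30.9% for the class of Kcna2 (24.1 kb) and 13.4% for that of Kcna6 (32.5 kb). Of the Kcna6 sites, 0% in serum-2i Tdg and 100% in serum Tdg lie also in Gm33581. Below the filter, Kcna4 stood at 0.47 (-0.37 to 1.35) and Kcna7 at 0.09 (-0.41 to 0.60). Kcna5 had 1 site (coverage 6.5) in serum-2i Tdg and 6 (89.5) in serum Tdg, a log2 ratio of -4.51 (-5.44 to -3.69). Kcna1, the Kv1.1 subunit of axons, had 4 sites (49.0) and 11 (192), a ratio of -2.69 (-3.03 to -2.37), and a single site in serum wt. Kcna3, the Kv1.3 channel of T lymphocytes and the shortest member, had 0 sites in serum-2i Tdg and 6 (78.0) in serum Tdg.

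Kcna3 stands on chromosome 3 next to Kcna2 and Kcna10. Kcna2 had 8 and 14 sites in the same order and a ratio of -1.87 (-2.08 to -1.66), whereas Kcna10 had none in either. The neighbours of this cluster thus ranged between no listed site and 14.

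Silent alpha subunits of the Kcng and Kcns genes, which modify channels of other alpha subunits, included some of the lowest ratios. Kcns2 had 2 sites (19.5) in serum-2i Tdg and 12 (218) in serum Tdg, a ratio of -4.20 (-4.72 to -3.73), and 50% and 91.7% of these sites lie also in the span of Gm32970. Kcns1 had 4 sites (34.5) and 13 (257.5), a ratio of -3.62 (-4.01 to -3.26), with 50% and 84.6% of these sites also in LOC115486434. Kcns3, by contrast, lay between, with 16 sites (276.5) and 9 (141.5) and a ratio of 0.24 (0.04 to 0.46). Kcns3 spans 61.0 kb and the other two of its family 6.053 and 7.495 kb.

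Kcng1 had 26 sites (388) in serum-2i Tdg and 48 (951) in serum Tdg, a ratio of -2.02 (-2.14 to -1.89). Kcng3 lay between at 0.13 (0.01 to 0.24). So did Kcng2 at -0.61 (-0.74 to -0.48), with 9.09% and 27.3% of its sites in other spans. Kcng4 had 23 sites (369.5) and 32 (549.5), with 21.7% and 6.25% of them in other spans, and a ratio of -1.29 (-1.43 to -1.16). It is among the densest genes at 1.94 and 2.71 sites per kb. It also held the longest tight run of listed sites, with neighbours at most 100 bases apart, among members: 18 sites within 509 bases in serum Tdg, chr8:119625699-119626207, of which 9 were listed in serum-2i Tdg as well. Such runs of at least 10 sites also lay in Kcnh6, Kcnh2, Kcnh4, Kcnab2 and Kcnj5 in serum Tdg, while Kcnmb4 held the 1 run of serum-2i Tdg.

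The ERG and ELK genes of the Kcnh group, which include the cardiac repolarising channel Kcnh2, differed in density. Kcnh2, Kcnh3, Kcnh4 and Kcnh6 held 1.09 to 3.22 sites per kb in serum Tdg, whereas Kcnh7 had no site there and Kcnh8 had 1. Most Kcnh6 sites, 70.8% in serum-2i Tdg and 83.3% in serum Tdg, lie also in Gm35971. Kcnh2 (chr5:24319589-24351684) had 37 sites (742) in serum-2i Tdg and 69 (2094) in serum Tdg, a ratio of -2.22 (-2.31 to -2.13), and 59.5% and 72.5% of these sites lie also in Gm15589. One of its sites reached a coverage of 62.5 in serum-2i Tdg and 143.5 in serum Tdg, within a run of 10 sites that averaged 50 in serum Tdg. Kcnh4 had 23 sites (401.5) and 37 (734.5), a ratio of -1.59 (-1.72 to -1.47). Kcnh3 lay just inside the 2-fold rule and was not called, at 44 sites (1008), 59 sites (1219) and a ratio of -0.996 (-1.08 to -0.91). Of its sites 2.27% and 16.9% lie also in other spans. Long Kcnh genes differed from the dense ones and from each other. Kcnh1 had 38 sites (766.5) and 15 (281) and lay between, at 0.73 (0.59 to 0.87). Kcnh8 had 5 sites (109) and 1 (11.5), a ratio of 2.52 (1.90 to 3.21). Kcnh5 and Kcnh7 had 6 and 5 sites in serum-2i Tdg alone, both below the filter.

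Kcnb2, an alpha subunit of 436.8 kb, had 38 sites (702.5) in serum-2i Tdg and 6 (80.5) in serum Tdg. It was higher, at 2.40 (2.17 to 2.65), with 7.89% and 16.7% of its sites in other spans.

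The Kcnq genes, whose channels carry the neuronal M current and a slow repolarising current of the heart, included a higher call. Kcnq5 (564.3 kb) had 27 sites (401) in serum-2i Tdg and 4 (63.5) in serum Tdg, a ratio of 1.94 (1.67 to 2.22). Kcnq1 (320.2 kb), the cardiac partner of Kcne1, had 98 sites (1663.5) and 62 (1203), between at -0.25 (-0.33 to -0.18), and 18.4% and 1.61% of them lie also in other spans, which include the antisense gene Kcnq1ot1.

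Among 11 auxiliary subunits of voltage-gated channels, 10 had a ratio, with a median of 0.07. Of these, 4 were higher (background 28.2%), 4 were lower (25.1%) and 2 lay between. This group held both the highest and the lowest ratio of all members. Kcnip4 (chr5:48389503-49525122), the calcium-binding Kv4 partner with the longest span, had 56 sites (905.5) in serum-2i Tdg and 1 (8.5) in serum Tdg, a ratio of 6.01 (5.33 to 6.80), which rests on that single site. Kcnip1 had 66 (1197) and 22 (297.5) and was higher at 1.29 (1.16 to 1.42), with 31.8% and 27.3% of its sites in other spans. Kcnip2, of 24.1 kb, had 15 (213.5) and 31 (520.5) and was lower at -2.01 (-2.17 to -1.84). The media ratio of a Kcnip gene thus went with its span in the 4 genes, Kcnip3 being lower at -1.32 (-1.44 to -1.20) with 38.7% and 38.2% of its sites in other spans.

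The small Kcne subunits differed from each other at like length. Kcne3 (chr7:100176507-100184869), an epithelial partner of Kcnq1, had 1 site (14.0) in serum-2i Tdg and 15 (249.5) in serum Tdg, the lowest ratio of all at -4.88 (-5.48 to -4.33), with 100% and 33.3% of these sites in other spans. Kcne2 had 6 sites (110.5) and 1 (12.0), a ratio of 2.48 (1.87 to 3.15), and was the only member under 10 kb called higher. Kcne1 had 19 sites (313.5) and 5 (163), between at 0.22 (0.03 to 0.42), with 26.3% and 80% of its sites in other spans.

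Of the Kcnab genes, which encode cytoplasmic beta subunits, Kcnab1 (429.0 kb) had 40 sites (705.5) in serum-2i Tdg and 9 (113.5) in serum Tdg and was higher at 1.91 (1.71 to 2.12), with 32.5% and 11.1% of its sites in other spans. Kcnab2 (86.8 kb) had 81 (1859) and 59 (1189.5), at -0.08 (-0.15 to -0.00), and carried the deepest member site of serum-2i Tdg, chr4:152395226, with 136.5 there and 99 in serum Tdg. Kcnab3, of 6.78 kb, had 14 (212) and 18 (543), a ratio of -2.08 (-2.24 to -1.92). Of those 18 sites 15 lie within 1 kb of a span end, and away from the ends its ratio was 0.11.

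The 15 inward rectifiers gave 10 ratios, with a median of -1.57. Of these, 2 were higher (background 28.2%), 6 were lower (25.1%) and 2 lay between. Kcnj4, a strong inward rectifier of excitable cells, had 38 sites (575.5) in serum-2i Tdg and 69 (1405) in serum Tdg, a ratio of -2.01 (-2.11 to -1.91). Kcnj6, a subunit of G-protein-gated channels in neurons, had 153 (2503) and 56 (946.5), between at 0.68 (0.60 to 0.76), and its sites near a span end alone gave -1.66. Kcnj15, an epithelial channel subunit, had 6 (86.5) and 1 (8.0), a ratio of 2.71 (1.97 to 3.55). Kcnj1, the secretory channel of the kidney, had 7 (90.0) and 1 (13.0), a ratio of 2.07 (1.47 to 2.72), and all of these lie also in Gm31755.

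Those 2 higher calls rest on 1 site each in serum Tdg. Kcnj16, which joins Kcnj10 in channels of the kidney, had 15 sites (221) in serum-2i Tdg and none in serum Tdg, the most of any inward rectifier listed in 1 Tdg group alone. Kcnj11, the pore of the pancreatic ATP-sensitive channel, had 5 and 1 sites and stayed below the filter.

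Of 14 two-pore channels, which carry background current, 13 had a ratio, with a median of -0.58. Among the 13, 1 was higher (28.2% of all genes), 5 were lower (25.1%) and 7 lay between. Kcnk4 (chr19:6925662-6934883), the mechanically gated TRAAK channel, was the densest member at 2.49 sites per kb in serum-2i Tdg and 5.86 in serum Tdg. It had 23 sites (286) and 54 (977.5), a ratio of -2.50 (-2.63 to -2.36), and none in either wt group, while 39.1% and 24.1% of its sites lie also in Gm46646. Kcnk9, the acid-sensitive TASK-3 channel, had 2 (29.5) and 13 (206), at -3.53 (-3.94 to -3.13), and Kcnk15 of the same subgroup had 2 (15.0) and 7 (88.5), at -3.28 (-3.89 to -2.72).

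Kcnk5, the alkaline-activated TASK-2 channel of kidney and other epithelia, was the 1 two-pore gene called higher. It had 68 sites (1289.5) in serum-2i Tdg and 14 (223) in serum Tdg, against 10 (63.0) for serum-2i wt and 2 (9.5) for serum wt, and the media ratio in Tdg cells was 1.81 (1.66 to 1.96). Kcnk16 had 6 sites (59.5) in serum-2i Tdg alone and did not pass the filter. Related channels with a like role thus had ratios of both signs.

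Among 12 calcium-, sodium- or pH-activated channel genes, 10 had a ratio, with a median of 0.82. Of these, 4 were higher (background 28.2%), 3 were lower (25.1%) and 3 lay between. The pore of the large-conductance calcium-activated channel and 2 of its 4 beta subunit genes were called higher in serum-2i. Kcnma1 spans 712.8 kb, Kcnmb2 298.3 kb and Kcnmb4 56.0 kb. In their length classes 68.6%, 45.8% and 32.1% of all genes were called higher. Whether these genes differ from others beyond length was not tested. Kcnma1, the pore, had 67 sites (1220) in serum-2i Tdg and 9 (116) in serum Tdg, a ratio of 2.67 (2.48 to 2.87). Of its sites 20.9% and 11.1% lie also in other spans. Kcnmb2 (chr3:31901861-32200180) had 68 (1317.5) and 14 (189), at 2.08 (1.92 to 2.24). Kcnmb4 had 75 (1388) and 26 (366.5), at 1.20 (1.08 to 1.32), with 14.7% and 11.5% of its sites in other spans. Kcnmb3 was between, at 0.75 (0.54 to 0.96), and Kcnmb1 had 3 sites in serum-2i Tdg, all inside Kcnip1.

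The small- and intermediate-conductance Kcnn genes differed among themselves. Kcnn3 (152.3 kb) had 127 sites (2559.5) in serum-2i Tdg and 42 (765) in serum Tdg and was just past the rule at 1.02 (0.94 to 1.10), a call that ended with site-number scaling (0.86), median-ratio scaling (0.94), number of sites (0.72), a coverage of at least 10 (0.99) and sites near an end (0.25). Kcnn2 (417.1 kb), the longest of them, had 13 (222) and 5 (72.5) and lay between, at 0.89 (0.62 to 1.17). Of its sites 23.1% and 20% lie also in other spans. Kcnn1 (22.5 kb) had 23 (413.5) and 42 (683), a ratio of -1.45 (-1.57 to -1.32). Kcnn4 (15.4 kb), the channel of red cells and lymphocytes, had 16 (221.5) and 29 (508.5), at -1.92 (-2.09 to -1.76). The sodium-activated Kcnt2 had 16 sites (189) in serum-2i Tdg and none in serum Tdg.

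**Figure D5:**
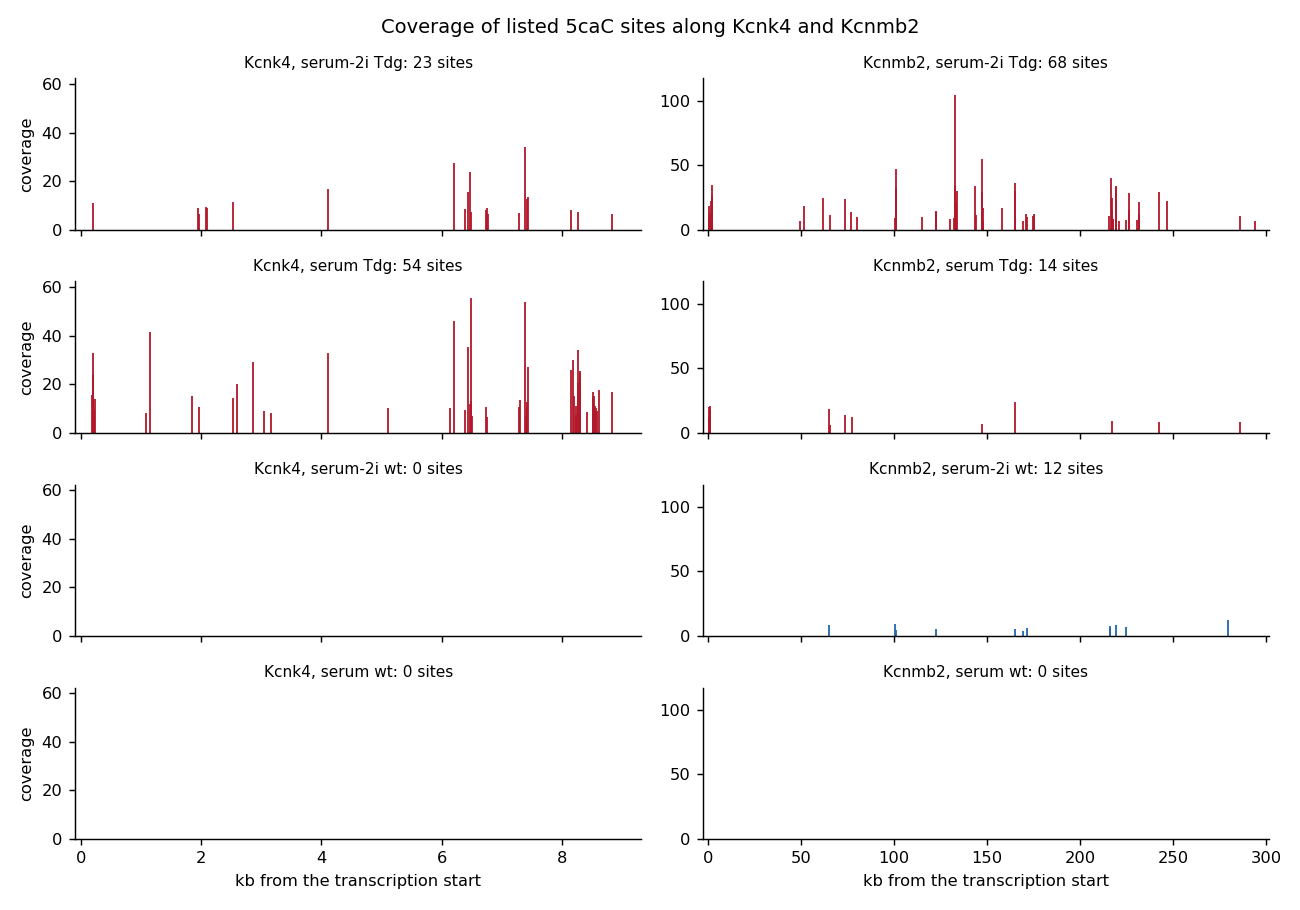
Coverage of each listed 5caC site (vertical lines, linear axis from 0) by distance from the transcription start in kb along Kcnk4 (left) and Kcnmb2 (right), in serum-2i Tdg, serum Tdg, serum-2i wt and serum wt from top to bottom. Kcnk4 has 23 and 54 sites in the Tdg groups and none in wt cells, and Kcnmb2 has 68, 14, 12 and 0. The Kcnk4 site at -0.144 kb, with coverage 17 in serum-2i Tdg and 14 in serum Tdg, lies outside the drawn axis.

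In serum-2i, Tdg cells were compared with wt cells for 61 genes with sites in both. Of these, 8 were higher in Tdg (background 11.0%), 12 were lower (21.8%) and 41 lay between, with a median of 0.06 against -0.23 for all genes. Scaled by the number of listed sites in place of summed coverage, 36 of 61 were higher (background 47%) and 1 was lower (4.01%), with a median of 1.22 against 0.93 for all genes. The split of directions therefore depends on the scaling. A further 15 genes past the filter had no listed site in serum-2i wt.

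By length, these calls were few in every class. Under 10 kb, 0 of 5 potassium channel genes were higher in Tdg (background 8.15%) and 3 were lower (40.5%). Between 10 and 30 kb, 2 of 15 were higher (11.8%) and 4 lower (28.3%), and between 30 and 100 kb, 3 of 24 were higher (10.1%) and 5 lower (17.7%). Between 100 and 300 kb, 2 of 7 were higher (11.5%) and 0 lower (6.62%), and over 300 kb, 1 of 10 was higher (19.7%) and 0 lower (2.11%). All 12 lower calls lay in genes under 100 kb, and the background shares of lower calls were smallest above that length too.

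The genes at the upper end had few sites in wt cells. Kcnc2, a Kv3 channel of fast-firing neurons, had 24 sites (355.5) in serum-2i Tdg and 1 (7.0) in serum-2i wt, a ratio of 1.87 (1.12 to 2.75). Kcns3 had 16 (276.5) and 1 (6.0), at 1.73 (0.92 to 2.69), and Kcnab1 had 40 (705.5) and 3 (19.5), at 1.38 (0.92 to 1.88). Kcnk12, a halothane-inhibited two-pore subunit, had 29 (660.5) and 2 (21.5), at 1.15 (0.71 to 1.62).

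At the lower end stood Kcnj8, a pore of ATP-sensitive channels in vascular muscle, with 4 sites (31.5) in serum-2i Tdg and 1 (11.5) in serum-2i wt and a ratio of -2.34 (-3.05 to -1.58). Kcns1 had 4 (34.5) and 1 (10), at -2.01 (-2.74 to -1.21), and Kcnip2 had 15 (213.5) and 6 (50.5), at -1.71 (-2.03 to -1.39). Kcnj15 had 6 (86.5) and 3 (19.0), at -1.61 (-2.12 to -1.06), and Kcnn1 had 23 (413.5) and 9 (87.0), at -1.55 (-1.78 to -1.30). A lower share here still meant more sites and more coverage in Tdg cells for each of these genes. Where both groups had at least 5 sites, a limit chosen after the values were seen, 0 of 29 genes were higher (background 2.04%) and 6 were lower (20.6%), which is close to the background. By number of sites in place of coverage, none of the 61 genes was called higher (background 0.746%) or lower (4.04%), so each call named here ended.

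Among members with many sites in serum-2i wt, ratios near 0 and lower ones were found. Kcnn3 had 127 sites in serum-2i Tdg and 23 in serum-2i wt, at 0.06 (-0.10 to 0.22). Kcnj6 had 153 and 20, at 0.20 (0.03 to 0.36), whereas Kcnab2 had 81 and 22, at -0.60 (-0.75 to -0.45; 0.56 when scaled by site number). The listed positions of the groups overlapped only in part: of all member sites, 176 were listed in both groups, which is 7.56% of those of serum-2i Tdg and 45.5% of those of serum-2i wt. At the shared positions the median coverage was 16.5 in serum-2i Tdg and 7.5 in serum-2i wt, and wt was the higher at 12 of them, where the listing minima of 6 and 4 already favour Tdg.

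In serum, only 28 of the genes had a site in wt cells, most of them 1, so single ratios rest on very few sites. Of these 28, 1 was higher in Tdg (Kcnh2, at 1.13; background 3.78%) and 9 were lower (background 55.6%). A gene has a ratio here only if serum wt lists it, and the sum over members, given above, needs no such choice except under median-ratio scaling. The 37 member sites of serum wt had coverages of at most 7.5, and 20 of them were listed in serum Tdg as well, which is 1.20% of the 1665 sites of serum Tdg and 54.1% of those of serum wt. At these 20 positions the median coverage was 14.8 in serum Tdg and 4.75 in serum wt, but the listing minima of 6 and 3 all but fix that order.

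In wt cells, 26 genes had sites in both media, of which 1 was higher in serum-2i (Kcnab2, at 1.30; background 5.32%) and 16 were lower (background 58.6%). For Kcnab2 these were 22 sites (203) of serum-2i wt and 1 (4.0) of serum wt. Member positions shared by the media were 6 in wt cells, against 695 in Tdg cells, which is 29.8% of the member sites of serum-2i Tdg and 41.7% of those of serum Tdg. Over all positions the shares in Tdg cells were 28.7% and 52.8% in the same order.

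2 member positions were listed in all 4 groups. At chr7:29231322 in Kcnk6, a two-pore channel, coverage was 20 in serum-2i Tdg and 13.5 in serum Tdg, against 5 for serum-2i wt and 3 for serum wt. At chr8:119625779 in Kcng4, inside the run described above, it was 23.5, 22, 9 and 6 in the same order. Both sites were deeper in the Tdg than in the wt group of each medium. The listing minimum of 6 in the Tdg groups already fixed that order at the Kcnk6 site. It all but fixed it in serum at the Kcng4 site, and library depth is unknown.

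Genes that work with potassium channels but fall outside the symbol rule also had ratios of both signs. There were 14 such genes: the Hcn pacemaker channels, the sulfonylurea receptors Abcc8 and Abcc9, Dpp6, Dpp10, Amigo1, Kcnrg and 4 Lrrc subunits. Of them, 11 had a media ratio in Tdg cells, with a median of -1.03. Among the 11, 1 was higher in serum-2i (background 28.2%), 6 were lower (25.1%) and 4 lay between. The higher one was Dpp10, a Kv4 partner of 1513.7 kb, with 11 sites in serum-2i Tdg and 2 in serum Tdg and a ratio of 2.60 (2.05 to 3.20). Amigo1, an auxiliary partner of 5.998 kb, had 8 and 21 sites and was lowest, at -2.58 (-2.82 to -2.36). Dpp6, of 910.1 kb, had 169 and 56 sites and a ratio of 0.97, between.

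Sodium channel Scn genes gave 4 higher (background 28.2%), 3 lower (25.1%) and 5 between of 12 with a ratio, with a median of 0.54. Voltage-gated calcium channel Cacna1 genes gave 1 higher (background 28.2%), 5 lower (25.1%) and 3 between of 9, with a median of -1.01. Yet their median span was 159.3 kb against 36.2 kb for the potassium channel genes. No ranking of these families was tested.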

How the data were processed

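5caC coverage at CG sites of mouse embryonic stem cell DNA was measured by selective decarboxylation and azide tagging of 5caC, biotin enrichment and Ion Proton sequencing, per the labels' protocols. The authors' deposited table holds coverage, a non-negative signal, by listed position and group. All values are multiples of 0.5 and were read as means of 2 technical replicates; p-values were not computed, as no value per replicate was available. The table lists no control entries. Per the submitters' processing notes, coordinates are mm10. No aligner or caller is named in the labels used. Library depth is unknown, so summed listed coverage stood in for it.

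Spans, starts and promoters came from RefSeq (GRCm38.p6). Exons were not used, so sites are not split into exons and introns. Sites and coverage were summed per span over all 20665 autosomal protein-coding genes (Python 3.11.15, pandas 2.3.3, SciPy 1.17.1). Log2 ratios of shares have exact conditional Clopper-Pearson 95% intervals for counting error only, on coverage summed over the replicates, and reads copied by PCR are not independent. The script was tested on simulated data. The planned count model was not run, for want of replicate values. Named genes are those with the most sites (10 per Tdg group), the most sites per kb (10), the highest and lowest media ratios (10 each way) and Tdg over wt ratios in serum-2i (5 each way), those listed in 1 Tdg group alone, and the promoters with most listed CGs; others serve to complete a family. Some members that meet these rules are not reported by name here but stay in all counts and sums. The members, lists and call rule were chosen with earlier results of these data known.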

Additional observations from a re-analysis of the deposited data

Results flagged for a closer look

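3 genes were picked out because their calls under the same contrast pointed opposite ways in 2 settings. Each of the differences was not tested, and each rests on the 1 or 2 sites that serum wt lists in the gene. Of all genes with a ratio, 58.6% were called lower in serum-2i in wt cells and 55.6% lower in Tdg in serum. Scaling by site number moved the members' sums from -0.28 to 0.41 and from 0.07 to 2.08 in these 2 comparisons. It shifts each gene alike, which ends the lower calls of Kcnk5 and Kcnk12 but not that of Kcnc2.

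Kcnc2, a Kv3 channel gene, was higher in serum-2i than in serum in Tdg cells, at a log2 ratio of 1.58, and lower in wt cells, at -4.26, a difference of 5.84. It had 24 sites in serum-2i Tdg and 6 in serum Tdg, against 1 for each wt group. Kcnk5, the TASK-2 channel gene, was higher in serum-2i in Tdg cells (1.81) and lower in wt cells (-1.64), a difference of 3.45, with 68 and 14 sites against 10 and 2. Kcnk12, the THIK-2 channel gene, was higher in Tdg than in wt cells in serum-2i (1.15) and lower in serum (-1.85), a difference of 3.00, with 29 against 2 sites in serum-2i and 23 against 2 in serum.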

How the results depend on the processing

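No paired analysis was possible because the table holds 1 value per group and none per replicate, and leaving out each replicate was not run for the same reason. Few sites limit the wt comparisons: 387 member sites for serum-2i wt and 37 for serum wt. Of 142 values for the comparisons under the alternatives, 110 stayed within 1.5 times the count, on the same side of the 2-fold rule or, for densities, inside the interval. Of the 66 medians and sums among the 142, 17 changed sign. Of 896 values of single genes, 807 kept their call. With their sign unchanged, 43 gained a call (17 of these by site-number scaling) and 35 lost one (21 by number of sites). In all 33 changed sign, among them the 11 named at the end. In each case below the cause was not tested.

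For media in Tdg cells the number of genes lower in serum-2i lay between 22 and 38 and the median between -0.84 and -0.26 under all alternatives but sites within 1 kb of a span end, where 18 of 23 genes were lower, 2 were higher, the median was -2.73 and the sum -2.17. The number higher was 7 by site number and 9 with at least 5 sites in each group (added after seeing the data). Under 10 kb, the density ratio of serum-2i Tdg was 1.08 with a coverage of at least 10.

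For Tdg over wt in serum-2i, scaling by site number gave 36 higher, 1 lower, a median of 1.22 and a sum of 1.12. The median of 0.06 changed sign with site number as the measure (-0.031; 0 higher, 0 lower), a coverage of at least 10 (-0.47; 2 higher), positions in no other gene (-0.020), 2 kb flanks (-0.054), end sites (-1.002; 0 higher, 4 lower) and at least 5 sites (-0.11; 0 higher, 6 lower). Without each gene's highest position 6 were lower. The sum of -0.04 in serum-2i was 0.19 with median-ratio scaling and without the highest positions, 0.03 and 0.09 at coverages of at least 6 and 10, and 0.09 at span ends. The sum of 0.07 in serum was -0.03 in positions of no other gene and -0.09 away from the ends. It was 2.08 with site-number scaling, 1.34 with median-ratio scaling, 1.63 at span ends and 1.97 without the highest positions. The wt media sum changed sign to 0.41, 1.22 and 1.43 under site-number scaling, median-ratio scaling and without the highest positions. Serum wt lists 37 sites in 28 members, so dropping each gene's highest position takes most of them, while group totals stayed whole. That alternative therefore raises the sums that use serum wt by construction and cannot test them.

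Of those 33, 11 left or reached a call. For Tdg over wt they were Kcnq1 (1.05) and Kcnn4 (0.11) with site-number scaling, Kcnt2 (-1.33) at a coverage of at least 10, Kcnj1 (-1.16) and Kcns1 (0.15) with flanks, and Kcnn3 (-1.51) and Kcnip2 (0.16) at span ends. For media in Tdg cells they were Kcnj6 (-1.66), Kcne1 (-1.25) and Kcnip2 (2.55) at span ends and Kcnab3 (0.11) away from them.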
